A study of Mus musculus with 23 samples.

Results

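The 8 genes described here encode subunits of cytoplasmic intermediate filaments: Vim, Gfap, Des, Prph, Nes, Synm, Krt8 and Krt18. They were chosen by symbol, and each matched 1 gene of the 43068 listed in the crush libraries and of the 22880 listed in the libraries of the mutant nerves. RNA of mouse sciatic nerve (SN) had been sequenced in 23 libraries of 7 groups. In the crush experiment, C57bl6 wild-type nerves were taken 3 days post crush (3 dpc): crushed nerves (n = 4, the segment distal to the injury), the contralateral nerves of crush-operated mice (n = 4) and nerves of surgery controls without a crush, here uncrushed (n = 3). In the other experiment, Dicer iKO mice (n = 3) carried Dicer1 flox/flox and P0-CreERT2 -/+, and Dgcr8 iKO mice (n = 3) carried Dgcr8 flox/flox and P0-CreERT2 -/+. Their controls (n = 3 for each line) had the same floxed alleles with P0-CreERT2 -/-, and mutants and controls alike were examined 3 months post tamoxifen (3 mpT). DICER1 cuts microRNA precursors and DGCR8 is the RNA-binding partner of the enzyme that acts before it. The recombinase is driven by a promoter aimed at myelinating Schwann cells (SCs), so the other cells of the nerve keep the gene, and the mutant nerves had been preselected on morphology because penetrance was incomplete. Crushes were made in young adult males. Tamoxifen was given to mutants and controls of either sex in young adulthood, so these nerves came from older mice.

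Intermediate filaments are ropes of coiled-coil proteins whose composition marks the kind and state of a cell. Vimentin is found in most mesenchymal, immune and glial cells, GFAP in astrocytes and in non-myelinating and immature SCs, desmin in muscle and pericytes, and peripherin in peripheral neurons and their axons. Nestin and synemin co-assemble with vimentin or desmin, and keratins 8 and 18 form the obligate pair of simple epithelia. In injured nerves the glia are known to return to an immature-like repair state, for which Gfap, Vim and Nes are often used as markers.

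The genes lie on 6 chromosomes of the GRCm38 assembly (GENCODE M21 gene bounds). Vim spans chr2:13573927-13582826 on the plus strand, Gfap chr11:102887336-102900912 on the minus strand, Des chr1:75360329-75368579 on the plus strand and Prph chr15:99055174-99058978 on the plus strand. Nes spans chr3:87971078-87980451 on the plus strand and Synm chr7:67730160-67759742 on the minus strand. Krt8 (chr15:101996698-102004482, minus strand) and Krt18 (chr15:102028180-102032027, plus strand) are neighbours. Synm overlaps Ttc23 on the other strand, Des overlaps the antisense gene Gm15179, and Gfap and Krt8 each overlap a non-coding gene on the other strand. Whether the counting used strand is not given in the sources used here, so reads of such pairs may not be told apart.

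The start regions of 4 of the genes are shown because these 4 include the genes that moved most, and because they differ in the TATA box, the element that places the start of transcription. Each stretch runs from 40 to 11 bases before the RefSeq start (GRCm38.p6), and capitals mark TATAAA:
Gfap, chr11:102897211-102897240, minus strand: gcccagctccaccccctcaggctattcaat
Vim, chr2:13574271-13574300, plus strand: aacagtgtTATAAAagcagcgcccttggcg
Nes, chr3:87971053-87971082, plus strand: aataccctcgcttcagctcgctgctggaat
Prph, chr15:99055134-99055163, plus strand: ccgcagggcTATAAAgccgccccgcatcgg
Vim, the gene with the highest level, and Prph, one of those with low levels, held TATAAA with its first base 32 and 31 bases before the start, and Gfap and Nes did not hold it. On either strand, TATAAA was in 13.6% of 32851 RefSeq windows of the same length (250 bases before to 50 after the start). Of the 8 genes, Krt8 was the only other one with it, in 2 overlapping matches at the start itself. TGANTCA, the AP-1 motif, was in none of the 8 windows and in 7.81% of all, and TTCNNNGAA, the STAT motif, was in the Gfap window, 2 bases before the start, and in 8.3% of all. These are letters found in a window and say nothing of which factor binds.

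Gfap and Synm are each annotated with a pair of coding transcripts that differ in the protein they encode. Gfap-201 and Gfap-202 share 1162 coding bases and then end differently, in 131 and 125 coding bases of their own. The distinct part of Synm is shown because the deposited counts are per transcript. Synm-202 keeps a coding stretch of 906 bases (302 codons, chr7:67733554-67734459, minus strand) that Synm-201 removes as an intron. The 30 bases on each side of the joint in Synm-201, and the first and the last 30 kept bases in Synm-202 (capitals) with the same flanks, read:
Synm-201, joint: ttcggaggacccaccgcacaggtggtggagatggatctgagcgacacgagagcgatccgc
Synm-202, into the stretch: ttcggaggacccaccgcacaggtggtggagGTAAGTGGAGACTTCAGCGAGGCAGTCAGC
Synm-202, out of the stretch: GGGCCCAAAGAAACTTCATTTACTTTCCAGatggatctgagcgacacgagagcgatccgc

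Levels below are CPM (expected counts scaled to a library of 1000000, with TMM factors within each experiment), and the libraries held between 5594859 and 12806066 counts. The 2 experiments had been prepared with different kits, so levels are compared within an experiment. A count of 3 in a library, the upper limit that a count of 0 allows, was worth between 0.234 and 0.536 CPM, which covers counting error only. Differences were tested across all genes with edgeR's quasi-likelihood test and Benjamini-Hochberg adjusted p, and a gene was called where it differed at least 2-fold at an adjusted p of at most 0.05. By the study's methods each library of a group was 1 mouse, while the labels do not tie contralateral and crushed nerves to mice, and p-values measure the spread between these libraries. The SC markers were high in every control nerve, and their summed level over 10 genes was between 43036 and 58635 CPM in uncrushed and contralateral nerves and between 2177 and 3209 CPM after crush. Counts over the whole Dicer1 gene were between 81.4 and 82.2 CPM in Dicer iKO and between 87.5 and 90.6 CPM in their controls. Those of Dgcr8 were between 39.4 and 54.0 CPM in Dgcr8 iKO and between 35.4 and 41.8 CPM in their controls, and a whole-gene count of a whole nerve does not show the loss of a floxed exon in SCs. By PCR, the paper reports less Dicer mRNA in Dicer iKO and less Dgcr8 mRNA in Dgcr8 iKO nerves than in controls. It also reports less of an abundant microRNA in both mutants.

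Vim and Nes made up nearly all of the intermediate filament RNA described here. Levels of different genes were compared on the deposited FPKM scale, which takes transcript length into account. Vim was 1135 ± 94.1 (SD, n = 4) and Nes 248 ± 17.5 in contralateral nerves, while Synm, the next, was at most 6.07 in any uncrushed or contralateral nerve. The Vim sum includes Vim-203, annotated as a retained-intron transcript of 535 bases, where Vim-201 has 2193. Vim-203 took 8.93% ± 0.85 of the Vim expected counts in contralateral and 15.1% ± 0.33 in crushed nerves (n = 4 each). So short a transcript weighs more in FPKM than in counts, and the Vim shares and ratios in FPKM depend on it. Vim took 81.3% ± 0.96 of the summed FPKM of the 8 genes in contralateral and 83.0% ± 2.23 (n = 3) in uncrushed nerves. In the controls of the mutants it took 87.1% ± 0.65 (Dicer, n = 3) and 87.1% ± 1.69 (Dgcr8, n = 3). Below Vim and Nes, the FPKM of Synm, Prph, Des and Gfap lay close together in contralateral nerves, at 5.01 ± 0.51, 3.51 ± 0.74, 2.47 ± 0.21 and 1.36 ± 0.12. In that order the ranges of Synm (4.51 to 5.59) and Prph (2.96 to 4.58) overlapped, and those of the other neighbours did not. The keratins came last, with 0.16 ± 0.08 FPKM for Krt8 and 0.28 ± 0.26 for Krt18, which overlapped.

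**Figure D1:**
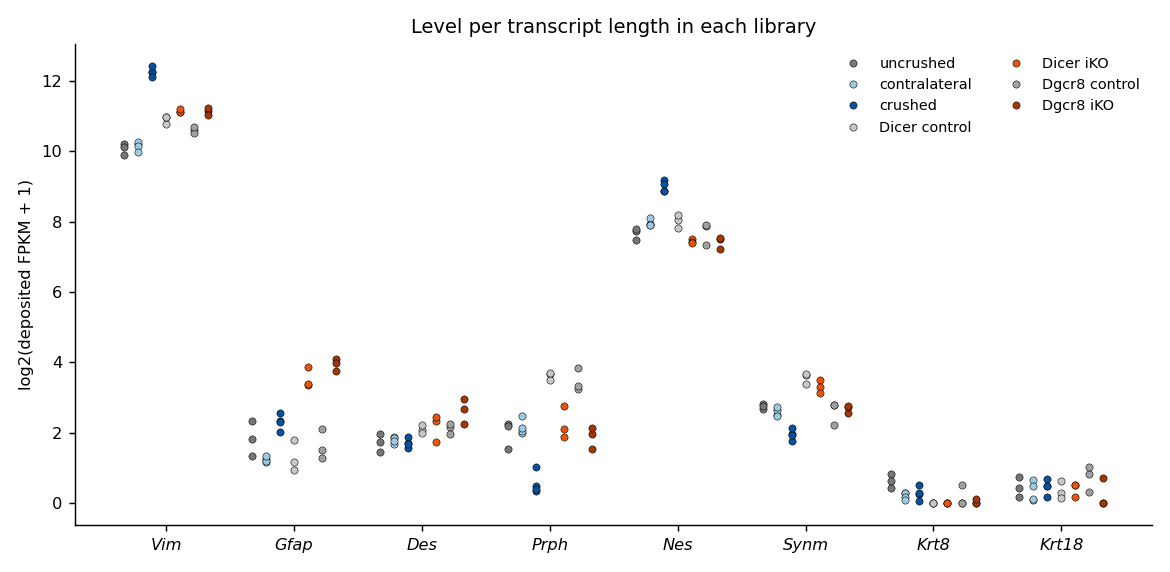
Deposited FPKM summed per gene, plotted as log2(FPKM + 1) for each of the 8 genes (x axis), 1 point per library, coloured by group. Vim and Nes stand above the other 6 genes in every library, and Krt8 and Krt18 are at or near 0.

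At 3 dpc, the filament genes moved in different directions. Against contralateral nerves, Vim and Gfap rose and Prph fell, that is 2 of the 6 tested genes higher and 1 lower, where 14.6% and 13.6% of the 16667 genes tested were called. Against uncrushed nerves, Vim and Nes rose and Prph and Synm fell, where 15.3% and 21.1% of 17433 genes were called. Krt8 and Krt18 did not pass the filter on low counts (10 counts in enough libraries) in any comparison, so the counts are of the 6 genes that did. The median log2 fold change of the 6 was 0.43 against contralateral and 0.45 against uncrushed nerves, beside medians of -0.06 and -0.03 over all genes tested. Both comparisons use the same crushed libraries, and the values of each are given side by side below.

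Vim, the general mesenchymal and glial subunit, had the largest fold rise of the 6 tested genes after crush. Its levels were 5975, 6260.1, 6599 and 5265.5 CPM in the 4 crushed nerves. The contralateral nerves held 1727, 1922, 1755.5 and 1578.5 CPM, and the uncrushed ones 1636, 1765.5 and 1798 CPM. Every crushed nerve lay above every other nerve of the experiment. The log2 fold change was 1.80 ± 0.11 (SE, 3.48-fold, adjusted p = 1.95e-09) against contralateral and 1.90 ± 0.13 (3.74-fold, adjusted p = 1.23e-07) against uncrushed nerves. Vim transcripts took 0.642% ± 0.051 of all counts in crushed and 0.173% ± 0.015 in contralateral nerves. In a bulk sample, more cells of a type and more RNA per cell cannot be told apart. Macrophages and fibroblasts also express Vim. All 10 macrophage markers rose after crush, their summed level being between 818 and 1883 CPM in crushed and between 124 and 233 CPM in contralateral nerves. Of the 10 fibroblast markers 1 was higher and 2 were lower, and their summed level was between 3030.4 and 3673 CPM in crushed and between 4403 and 5962 CPM in contralateral nerves. The part of either in the Vim level was not tested.

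Nes, which encodes nestin, a partner of vimentin in immature glia, moved the same way as Vim and less far. The 4 crushed nerves held 3204, 2743, 2916 and 2467 CPM, the contralateral nerves 1395.5, 1613, 1414 and 1418 CPM, and the uncrushed nerves 1356, 1353 and 1185 CPM. The crushed nerves did not overlap with the others. Nes was 2.35-fold higher than in uncrushed nerves (log2 1.23 ± 0.13, adjusted p = 6.63e-06) and 1.96-fold higher than in contralateral nerves (log2 0.97 ± 0.10, adjusted p = 1.16e-06), the latter just under the 2-fold limit. Without contralateral replicate 2, the highest of its group, or without crushed replicate 4, the lowest of its group, the log2 value against contralateral nerves was 1.05 and 1.03 and so past the limit. The ratio of Vim to Nes FPKM was 9.64 ± 0.93 (n = 4) in crushed and 4.58 ± 0.27 (n = 4) in contralateral nerves, with no overlap. The short Vim-203 transcript, whose share of Vim counts was higher in crushed nerves, is part of this ratio.

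Gfap, the marker of non-myelinating and immature SCs, was a gene of low level that rose after crush. It was at 7.24, 9.15, 9.10 and 7.94 CPM in crushed nerves (84 to 112 counts). It was at 2.18, 2.91, 3.32 and 3.91 CPM on the contralateral side, and uncrushed nerves had 5.33, 4.02 and 5.83 CPM. All crushed CPM values were above all others, and the uncrushed values were above the contralateral ones. The fold was 2.75 against contralateral nerves (log2 1.46 ± 0.17, adjusted p = 3.31e-06) and 1.78 against uncrushed nerves (log2 0.83 ± 0.17, adjusted p = 0.00113), the latter under the 2-fold limit. Gm26668, the non-coding gene on the other strand, was at 0.94 ± 0.30 CPM in crushed and 1.29 ± 0.07 CPM in contralateral nerves (n = 4 each). In uncrushed nerves Gm26668 was at 2.24 ± 0.88 CPM (n = 3). The part of its reads in the Gfap level was not tested. For every 1000 FPKM of Vim, the short Vim-203 included, there were 0.81 ± 0.12 FPKM of Gfap in crushed and 1.21 ± 0.21 in contralateral nerves (n = 4 each). In uncrushed nerves there were 2.55 ± 1.17 (n = 3). On the FPKM scale Gfap overlapped between crushed (3.06 to 4.89) and uncrushed nerves (1.53 to 4.02). The Gfap sum includes Gfap-203, a transcript of 356 bases. It took 4.65% ± 5.31 of the Gfap counts in uncrushed, 1.76% ± 2.87 in contralateral and 1.29% ± 1.13 in crushed nerves.

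Prph, the type III subunit of peripheral neurons, fell most. The crushed nerves held 0.402, 0.653, 1.56 and 0.473 CPM, from 5 to 17 counts a library. Contralateral nerves held 4.92, 5.20, 5.64 and 7.72 CPM and uncrushed nerves 6.95, 6.16 and 3.60 CPM. Even the highest crushed nerve was below the lowest of the other nerves. Prph fell by 2.91 ± 0.32 on the log2 scale against contralateral (7.50-fold lower, adjusted p = 1.39e-06) and by 2.79 ± 0.39 against uncrushed nerves (6.89-fold lower, adjusted p = 5.75e-05). Neuronal and axonal markers moved in the same libraries: 6 of the 9 tested fell and 1 rose against contralateral nerves, with a median of -2.04. Their summed level was between 166 and 199 CPM in crushed and between 666 and 772 CPM in contralateral nerves. Among them Sncg (gamma-synuclein) fell by 3.101 ± 0.094 and Nefh, the heavy neurofilament subunit, by 2.99 ± 0.12, while Tubb3, a neuronal tubulin, was higher by 4.55 ± 0.12 (adjusted p = 1.07e-12). The part of axonal RNA in the Prph level was not tested.

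Synm, the large linker-like subunit that joins vimentin or desmin filaments, was lower after crush. The levels were 19.9, 17.9, 19.4 and 23.1 CPM in crushed, 33.9, 38.3, 32.9 and 41.2 CPM in contralateral and 43.0, 46.1 and 47.5 CPM in uncrushed nerves. The 3 groups did not overlap. Synm fell by 1.07 ± 0.11 on the log2 scale against uncrushed nerves (2.10-fold lower, adjusted p = 4.45e-06), and its log2 fold change against contralateral nerves was -0.85 ± 0.11 (1.80-fold lower, adjusted p = 9.78e-06), under the 2-fold limit. Ttc23 on the other strand was at 13.4 ± 0.86 CPM in crushed and 18.8 ± 1.25 CPM in contralateral nerves (n = 4 each).

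Des, which encodes desmin of muscle cells and pericytes, did not pass either limit after crush. It was at 6.20, 5.63, 6.71 and 5.77 CPM in crushed, 6.06, 7.01, 6.95 and 6.49 CPM in contralateral and 7.22, 5.91 and 5.15 CPM in uncrushed nerves, and the groups overlapped. The log2 fold changes were -0.11 ± 0.13 (adjusted p = 0.471) and 0.07 ± 0.18 (adjusted p = 0.723). Of the 10 smooth muscle and pericyte markers tested, 2 were lower and none higher against contralateral nerves, and their median was -0.32. Against uncrushed nerves 2 were lower and none higher as well, with a median of 0.08. Tagln (transgelin) fell by 2.04 ± 0.11 against contralateral nerves. Acta2 went the other way, at 27.7 to 40.8 CPM in crushed and 15.4 to 21.2 CPM in contralateral nerves, and was not called. The summed level of the list was between 272 and 315 CPM in crushed and between 363 and 397 CPM in contralateral nerves. Of the 10 skeletal muscle markers 9 were too low to be tested, and their summed level was at most 15.3 CPM in any nerve of the experiment.

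The keratin pair was close to the limit of detection in every nerve. Krt8 had 4, 1, 4 and 7 counts in the crushed, 4, 5, 2 and 1 in the contralateral and 7, 11 and 6 in the uncrushed libraries. Krt18 had 6, 2, 8 and 5 counts in the crushed, 8, 1, 1 and 5 in the contralateral and 2, 7 and 3 in the uncrushed libraries. Crushed nerves overlapped with both other groups for both genes, and no fold is given at these counts. Of the 10 epithelial and mesothelial markers, 8 were also too low to be tested against contralateral nerves, and of the other 2 Cdh1, which myelinating SCs express too, fell by 2.80 ± 0.14. Of the 6 perineurial markers 5 were tested and 2 fell, and of the 8 endothelial markers 3 rose.

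**Figure D2:**
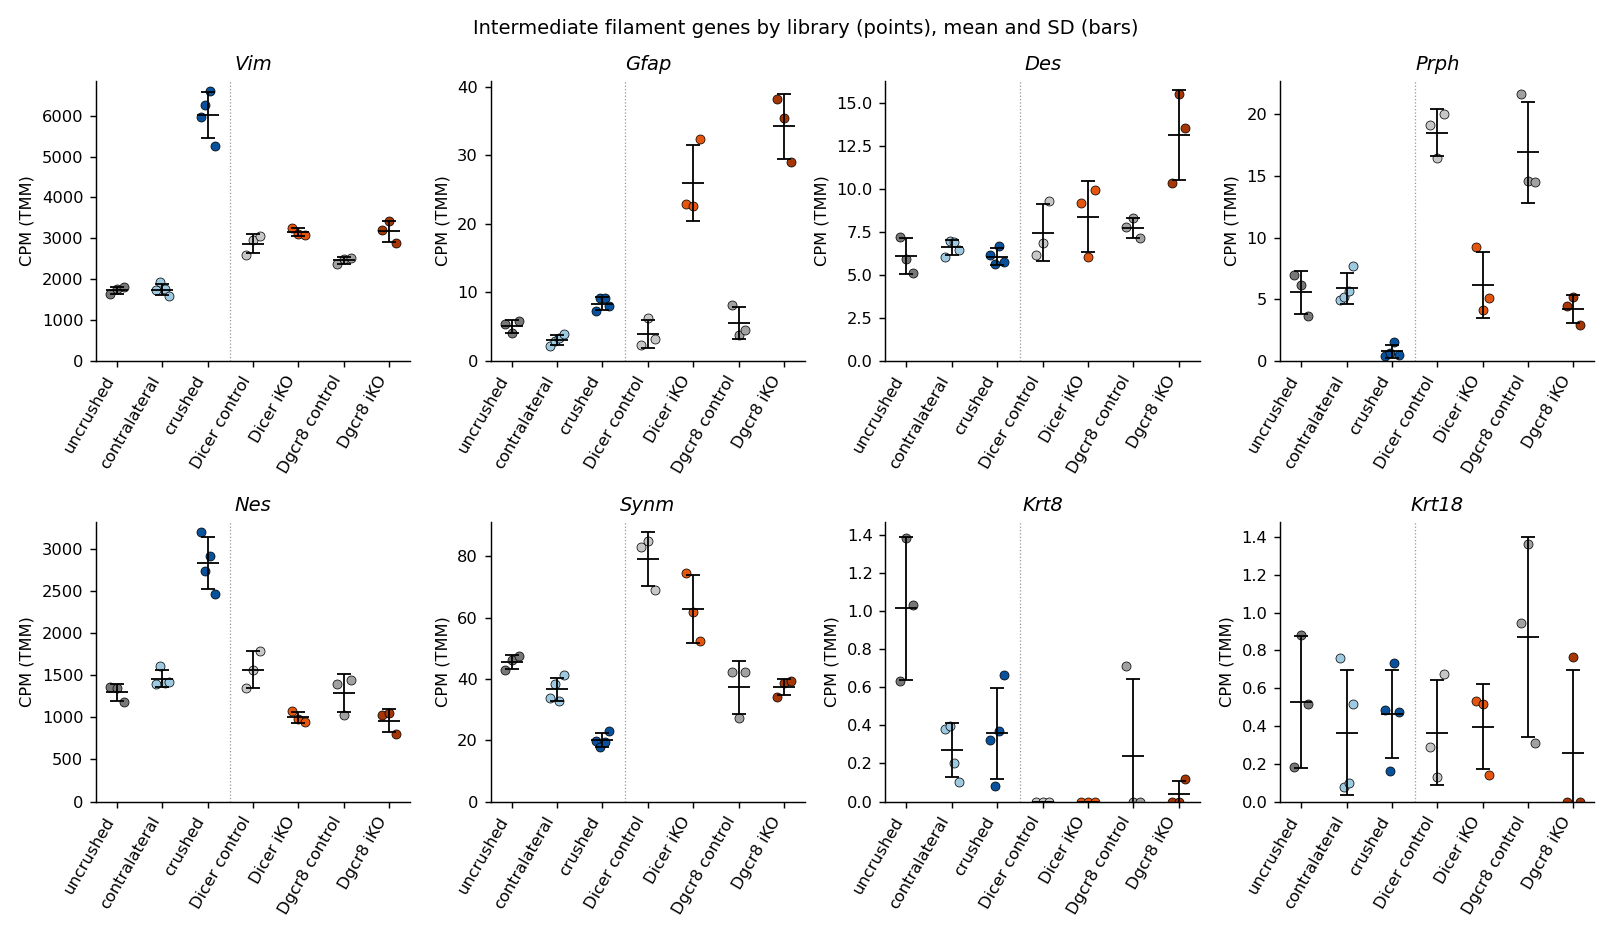
TMM-scaled CPM (y axis, linear from 0) of the 8 genes in the 7 groups (x axis), 1 point per library, with the mean and SD as bars. The dotted line separates the 2 experiments, whose levels are not compared. Vim and Nes are above their controls in crushed nerves, Gfap in crushed, Dicer iKO and Dgcr8 iKO nerves, and Prph is lower in all 3 of these groups than in their controls.

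Contralateral and uncrushed nerves were compared to see whether the uninjured side changed. None of the 8 genes was called, where 0% of 17722 genes were called higher and 0% lower by edgeR's quasi-likelihood test (3165 had an unadjusted p under 0.05). DESeq2 called 0 genes higher and 20 lower, and edgeR's exact test 2 and 161, none of them a filament gene described here. Contralateral nerves had a mean Gfap level of 3.08 ± 0.73 CPM (n = 4), against 5.06 ± 0.93 CPM (n = 3) in the uncrushed group, with a log2 fold change of -0.72 ± 0.24 (unadjusted p = 0.0108, adjusted p = 0.177). Synm was at 36.6 ± 3.86 against 45.5 ± 2.33 CPM (log2 -0.32 ± 0.09, unadjusted p = 0.00566, adjusted p = 0.149). Neither group overlapped with the other for these genes, yet neither difference passed the correction over all genes. The log2 values of Nes, Vim, Des and Prph were 0.16, 0.01, 0.09 and 0.02. Nes was above the uncrushed nerves in every contralateral nerve, and Krt8 was below them, at only 1 to 5 against 6 to 11 counts. The share of all genes whose groups separate in this way was not counted. The separations of Gfap, Synm, Nes and Krt8 are therefore given as a description only.

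In the nerves that lacked Dicer1 or Dgcr8 in SCs, the filament genes formed another pattern: Gfap rose, Vim and Nes did not rise past either limit, and Prph fell. In both mutants 1 of the 6 tested genes was called higher (Gfap) and 1 lower (Prph). Of all genes tested, 7.37% were called higher and 1.64% lower in Dicer iKO, and 13.4% and 6.99% in Dgcr8 iKO. The median log2 fold change of the 6 was -0.09 in Dicer iKO and 0.18 in Dgcr8 iKO, beside -0.01 over all genes in each. Of the SC markers, 0 of 10 were called in Dicer iKO (median -0.42) and 5 of 10 fell in Dgcr8 iKO (median -0.94). Their summed level was between 23851 and 29629 CPM in Dicer iKO against 29787 to 49460.0 CPM, and between 15775 and 30473 CPM in Dgcr8 iKO against 45750.0 to 49165 CPM. Their part in the levels of the filament genes was not tested.

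Gfap was at 22.9, 22.6 and 32.4 CPM in Dicer iKO and at 2.30, 6.22 and 3.25 CPM in their controls. In Dgcr8 iKO it was at 38.3, 35.4 and 28.96 CPM, against 8.15, 3.81 and 4.56 CPM in their controls. Every mutant nerve was above every control of its line. The folds were 6.58 for Dicer iKO (log2 2.72 ± 0.34, adjusted p = 0.00333) and 6.16 for Dgcr8 iKO (log2 2.62 ± 0.25, adjusted p = 1.7e-05). For every 1000 FPKM of Vim there were 4.74 ± 0.88 FPKM of Gfap in Dicer iKO against 0.79 ± 0.38 in their controls, and 6.43 ± 0.65 in Dgcr8 iKO against 1.40 ± 0.61 (n = 3 each). The repair and immature SC markers moved in the same nerves. Of the 9 tested, 5 rose in Dicer iKO and 8 in Dgcr8 iKO, with medians of 1.01 and 1.79, and in crushed nerves 7 of 9 rose against contralateral nerves, with a median of 2.73. Btc (betacellulin, a growth factor) had the largest fold of that list both in Dgcr8 iKO (log2 6.15 ± 0.52) and after crush (7.97 ± 0.16).

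Vim was at 3253, 3109 and 3088 CPM in Dicer iKO and at 2598, 2952 and 3049 CPM in their controls (log2 0.14 ± 0.14, adjusted p = 0.518). In Dgcr8 iKO it was at 3201, 3416 and 2896 CPM, against 2369, 2486 and 2517 CPM (log2 0.37 ± 0.18, adjusted p = 0.122). The mutants did not overlap with their controls in either line, but the differences were 1.10-fold and 1.29-fold and passed neither limit. Macrophage markers rose in the same nerves, 8 of 10 in Dicer iKO and 9 of 10 in Dgcr8 iKO. Their summed level was between 2848 and 6934 CPM in Dgcr8 iKO and between 370 and 437 CPM in their controls, and between 4259 and 7707 CPM in Dicer iKO and between 374 and 1242 CPM in theirs. Of the 10 fibroblast markers, 3 rose in Dicer iKO (median of the list -0.10) and 5 in Dgcr8 iKO (median 0.86). Their summed level was between 22070.0 and 23631 CPM in Dicer iKO against 7209 to 20447 CPM, and between 16306 and 19024 CPM in Dgcr8 iKO against 8074 to 10200.0 CPM. The part of these cells in the Vim level was not tested.

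Nes was at 1070.4, 976 and 948 CPM in Dicer iKO, below all of their controls at 1348, 1567 and 1782 CPM. It was 1.57-fold lower (log2 -0.65 ± 0.14, adjusted p = 0.0197), under the 2-fold limit. In Dgcr8 iKO it was at 1030.0, 1046 and 800 CPM against 1396, 1024.5 and 1446 CPM, with an overlap of 1 control (log2 -0.43 ± 0.20, adjusted p = 0.0955). The ratio of Vim to Nes FPKM was 13.1 ± 0.94 in Dicer iKO against 7.49 ± 0.50 in their controls, and 13.3 ± 0.93 in Dgcr8 iKO against 7.53 ± 1.25 (n = 3 each), with no overlap in either line.

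Prph fell in both mutants. It was at 9.19, 4.14 and 5.13 CPM in Dicer iKO against 19.1, 16.4 and 20.02 CPM, a fall by 1.57 ± 0.28 on the log2 scale (2.97-fold lower, adjusted p = 0.0103). In Dgcr8 iKO it was at 4.49, 5.16 and 2.92 CPM against 21.6, 14.6 and 14.5 CPM, and it fell by 2.003 ± 0.256 (4.01-fold lower, adjusted p = 0.000115). All mutants were below all controls of their line. Without Dicer iKO replicate 3 the Dicer iKO value was -1.44 with an adjusted p of 0.0597, just past the threshold with 1 library fewer, and the other mutant nerves still lay below all controls. Of the 9 neuronal and axonal markers tested, 3 fell and 1 rose in Dicer iKO and 8 fell and 1 rose in Dgcr8 iKO, with medians of -1.17 and -1.76. Their summed level was between 300 and 431 CPM in Dicer iKO against 544 to 649 CPM, and between 333 and 390 CPM in Dgcr8 iKO against 754 to 830 CPM. Nefl, the light neurofilament subunit, fell by 3.18 ± 0.22 in Dgcr8 iKO. The part of axonal RNA in the Prph level was not tested here either.

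Des was higher in Dgcr8 iKO, at 10.4, 15.6 and 13.5 CPM against 7.80, 8.31 and 7.16 CPM. The groups did not overlap, and the 1.70-fold difference (log2 0.77 ± 0.20, adjusted p = 0.00933) was under the 2-fold limit. In Dicer iKO it was at 9.19, 6.04 and 9.98 CPM against 6.18, 6.88 and 9.33 CPM, with an overlap (log2 0.18 ± 0.26, adjusted p = 0.658). Of the 9 smooth muscle and pericyte markers tested in Dgcr8 iKO, 1 rose (Cspg4, the pericyte and glial progenitor proteoglycan NG2, by 1.19 ± 0.21) and 3 fell, among them Kcnj8, a channel of pericytes, by 2.33 ± 0.22. The summed level of that list overlapped between Dgcr8 iKO (708 to 902 CPM) and controls (790.0 to 853 CPM).

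Synm did not differ past either limit in the mutants, with 74.5, 62.0 and 52.2 CPM in Dicer iKO against 83.1, 85.1 and 69.1 CPM (log2 -0.33 ± 0.15, adjusted p = 0.159) and 34.2, 38.6 and 39.2 CPM in Dgcr8 iKO against 42.2, 27.4 and 42.3 CPM (log2 -0.00 ± 0.17, adjusted p = 0.986). Both mutant groups overlapped with their controls. The 2 lines differed from each other: the Dicer controls, at 79.1 ± 8.70 CPM, were all above the Dgcr8 controls, at 37.3 ± 8.59 CPM (n = 3 each), a ratio of 2.12 that was seen in the data and is given without a test. Ttc23, on the other strand, was at 24.6 ± 2.21 and 30.6 ± 3.46 CPM in the same controls.

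The keratins were again near the limit. Krt8 had 0 counts in all 6 libraries of the Dicer line, which allows at most 0.536 CPM in a library, and 6, 0 and 0 counts in Dgcr8 controls and 0, 0 and 1 in Dgcr8 iKO. Krt18 had 2, 1 and 5 counts in Dicer controls and 4, 3 and 1 in Dicer iKO, and 8, 10 and 3 in Dgcr8 controls and 0, 8 and 0 in Dgcr8 iKO. The groups overlapped for both genes.

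**Figure D3:**
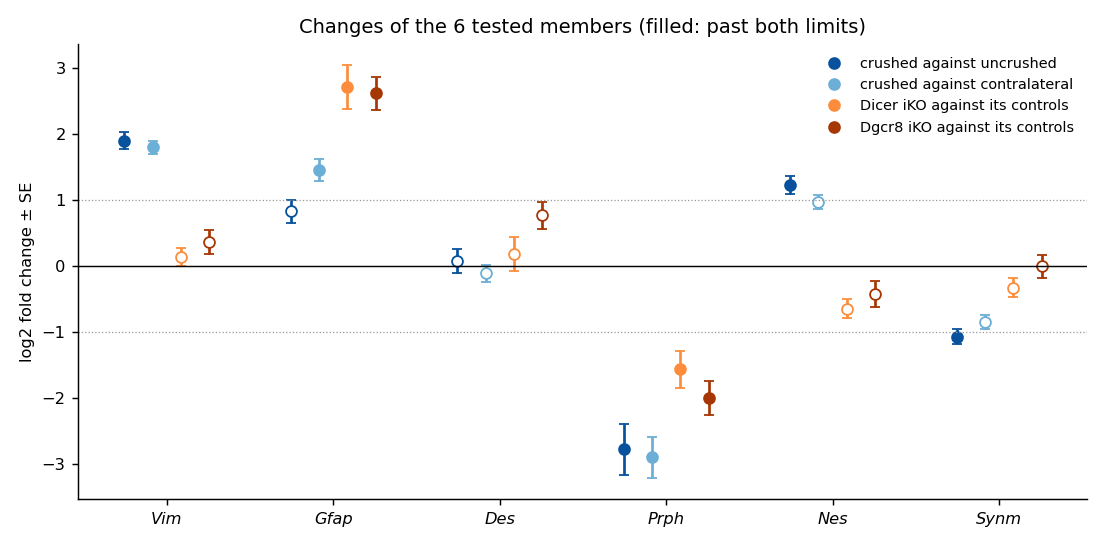
Log2 fold change (y axis, bars are SE) of the 6 tested genes (x axis) in 4 comparisons, with dotted lines at 2-fold; filled points passed the 2-fold limit and an adjusted p of 0.05. Vim and Nes have their highest values in the crush comparisons and Gfap in the mutants, and Prph is below -1 in all 4.

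Whether the 2 mutants differed from each other was tested as the difference of their effects. None of the 6 genes passed, where 0.00738% of 13552 genes were called higher and 0.00738% lower by edgeR's quasi-likelihood test (1861 had an unadjusted p under 0.05). The largest difference was that of Des, at 0.59 ± 0.33 on the log2 scale (adjusted p = 0.451), and that of Gfap was -0.09 ± 0.45 (adjusted p = 0.95).

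Whether the mutants differed from crushed nerves was tested in the same way, as the effect in the mutant minus the effect of crush against contralateral nerves, a test that was added after the data had been seen. Vim and Nes were lower and Gfap higher in both mutants on this measure. For Dgcr8 iKO the difference was -1.50 ± 0.16 for Vim (adjusted p = 2.65e-07), -1.47 ± 0.20 for Nes (adjusted p = 6.93e-06) and 1.10 ± 0.36 for Gfap (adjusted p = 0.0213). For Dicer iKO it was -1.73 ± 0.16 for Vim (adjusted p = 2.365e-08), -1.68 ± 0.20 for Nes (adjusted p = 7.62e-07) and 1.196 ± 0.379 for Gfap (adjusted p = 0.0153). Synm (0.78 ± 0.21, adjusted p = 0.00553) and Des (0.82 ± 0.26, adjusted p = 0.0177) also passed for Dgcr8 iKO, and Prph (1.28 ± 0.47, adjusted p = 0.0356) for Dicer iKO. Prph in Dgcr8 iKO (adjusted p = 0.183), and Synm (0.0822) and Des (0.552) in Dicer iKO, did not. By this rule 14.4% of 15355 genes were higher and 20.1% lower for Dgcr8 iKO, and 15.6% and 22.2% for Dicer iKO. With RLE in place of TMM factors the median over all genes moved from -0.08 to 0.04 (Dgcr8 iKO) and from -0.06 to 0.05 (Dicer iKO), and no filament gene changed direction. The kit, the time and the age of the mice differ between the experiments and cannot be told apart from this difference of effects. The Gfap difference fell short of the threshold without Dgcr8 control replicate 2 (0.89, adjusted p = 0.0705), Dgcr8 control replicate 3 (0.96, 0.0669) or Dgcr8 iKO replicate 1 (1.01, 0.0526), and for the Dicer line without Dicer control replicate 1 (0.91, 0.0635) or Dicer iKO replicate 3 (0.99, 0.0522). The Des difference for Dgcr8 iKO fell short without Dgcr8 iKO replicate 2 (0.67, adjusted p = 0.0672), and that of Prph for Dicer iKO without any of 6 libraries: Dicer control replicate 1 or 2, Dicer iKO replicate 1, or crushed replicate 1, 2 or 4 (0.85 to 1.275). Those of Vim and Nes passed with any 1 library left out, in both lines.

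At the transcript level, most Gfap counts were given to Gfap-201, the first of the 2 coding transcripts named above. It took 85.6% ± 7.68 (n = 4) of the Gfap expected counts in crushed and 83.0% ± 7.79 (n = 4) in contralateral nerves, and 92.3% ± 2.68 (n = 3) in Dgcr8 iKO. Gfap-202 had 33.7, 9.24 and 43.2 expected counts in the Dicer iKO libraries and was listed at 0 in all 3 of their controls, whose Gfap totals were only 16, 47 and 24 counts. The exact two-sided permutation p of its share, 15.04% in Dicer iKO against 0%, was 0.1, the smallest that 3 against 3 allows, and 0.3 after adjustment.

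The mean share of Synm-201, the transcript without the kept stretch, was lower in crushed and in mutant nerves than in their controls, and no difference passed the test. In crushed nerves Synm-201 held 37.4%, 18.04%, 44.2% and 15.8% of the Synm counts, in contralateral nerves 41.4%, 58.4%, 54.1% and 53.3%, and in uncrushed nerves 46.3%, 48.2% and 56.8%. One crushed nerve lay within the contralateral range. The exact two-sided permutation p was 0.0571 against contralateral nerves (the smallest possible is 0.0286) and 0.0571 against uncrushed nerves (the smallest possible), and 0.285 for each after adjustment over the 15 transcript tests run, which were added after the data had been seen. In Dgcr8 iKO the shares were 51.1%, 68.6% and 49.6% against 70.3%, 77.8% and 76.6% (exact permutation p = 0.1, the smallest possible), with no overlap, and in Dicer iKO 41.9%, 41.9% and 76.0% against 69.3%, 57.6% and 68.8% (exact permutation p = 0.4). In counts scaled to the library total, Synm-201 was between 3.27 and 9.22 in crushed and between 14.1 and 22.2 in contralateral nerves, without overlap, and Synm-202 was between 11.7 and 21.6 and between 14.98 and 19.97, with overlap. The expected counts split shared reads by a model. The share of Vim-206, a Vim transcript of low share in this experiment, (0.256% ± 0.371 in crushed against 3.69% ± 1.84 in contralateral and 4.08% ± 6.29 in uncrushed nerves) had an exact permutation p of 0.0286 against contralateral nerves, the smallest possible, and 0.285 after adjustment. Against uncrushed nerves the exact permutation p was 0.229, and 0.573 after adjustment. The uncrushed nerves held 11.3%, 0.301% and 0.594%, and crushed replicate 1, at 0.810%, lay within their range. Vim-203, the short retained-intron transcript, held 14.8% to 15.5% of the Vim counts in crushed nerves. It held 8.23% to 10.2% in contralateral and 7.54% to 11.2% in uncrushed nerves, without overlap, and its share was not tested.

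**Figure D4:**
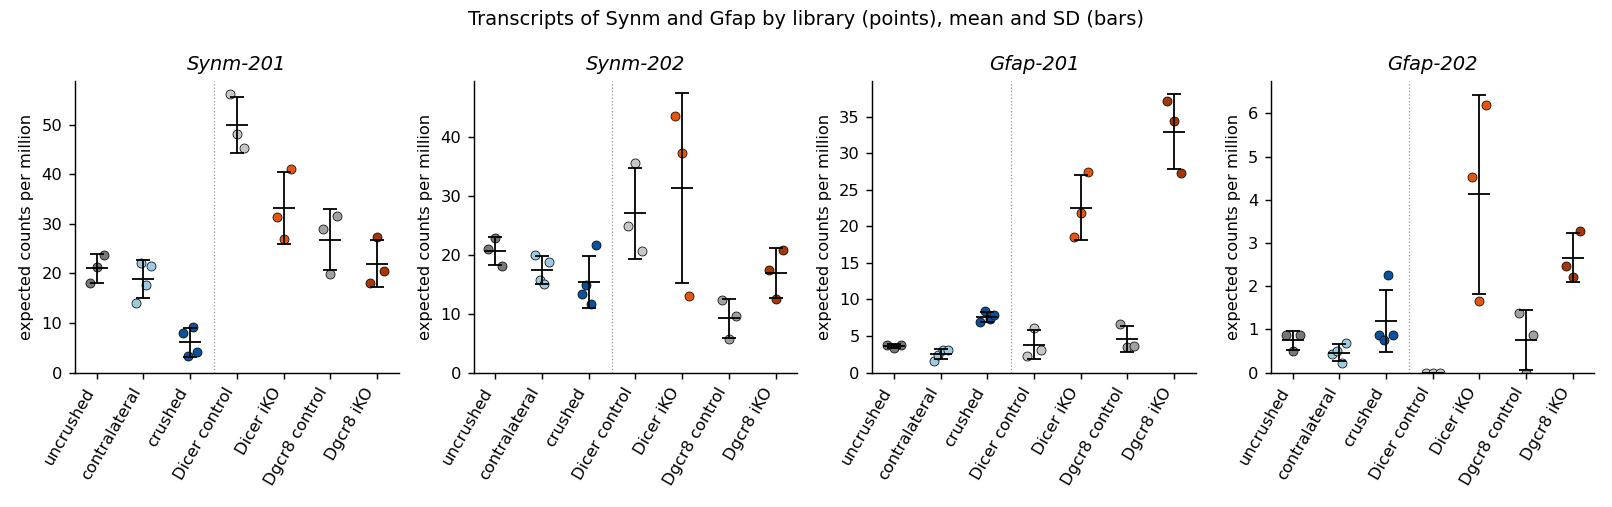
Expected counts scaled to a library total of 1000000 (y axis, linear from 0) of 2 Synm and 2 Gfap transcripts in the 7 groups, 1 point per library, with the mean and SD as bars. Synm-201 is lowest in crushed nerves while Synm-202 overlaps between crushed, contralateral and uncrushed nerves, and Gfap-201 is higher in both mutants than in their controls.

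The 21 other intermediate filament genes, among them neurofilaments, lamins and further keratins, moved both ways as well. Of the 14 tested against contralateral nerves, 3 were higher and 5 lower in crushed nerves, with a median of -0.27. In Dgcr8 iKO 2 of 15 were higher and 4 lower, with a median of -0.05, and in Dicer iKO 2 were higher and 2 lower. Of all genes tested, 14.6% were called higher and 13.6% lower in crushed against contralateral nerves. In Dgcr8 iKO these shares were 13.4% and 6.99%, and in Dicer iKO 7.37% and 1.64%. The list was not tested as a set. Lmnb1, the lamin of the nuclear envelope that is high in dividing cells, had the largest rise of the list both after crush (3.49 ± 0.12, adjusted p = 9.93e-12) and in Dgcr8 iKO (2.31 ± 0.28, adjusted p = 7.17e-05). Cell division genes rose in the same nerves, 10 of 10 in each. The part of dividing cells in the Lmnb1 level was not tested. Krt80, a keratin, rose by 2.70 ± 0.29 after crush, and Krt19 rose by 1.90 ± 0.48 in Dgcr8 iKO (adjusted p = 0.00809). Bfsp2, a subunit first known from the lens, fell by 4.44 ± 0.26 after crush and Nefh by 2.99 ± 0.12, and in Dgcr8 iKO the largest falls were those of Nefl (by 3.18 ± 0.22) and Nefh (by 2.86 ± 0.26).

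Among the 14 genes whose proteins link intermediate filaments to junctions or other filaments, 3 of 13 tested were higher and 5 lower in crushed against contralateral nerves (median -0.71), and 2 and 2 of 11 in Dgcr8 iKO (median -0.08). Pkp4 (a plakophilin) rose by 1.60 ± 0.09 and Flna (filamin A) by 1.25 ± 0.08 after crush. Ppl, which encodes periplakin, fell by 2.99 ± 0.20 after crush and by 4.09 ± 0.33 in Dgcr8 iKO, the largest fall of the list in both. Itgb4, an integrin subunit of myelinating SCs and perineurial cells that binds the outer matrix, fell by 2.04 ± 0.11 after crush. In Dgcr8 iKO, Pkp2 rose by 1.35 ± 0.21 and Macf1, a crosslinker of filaments and microtubules, by 1.28 ± 0.15, and Dtna (dystrobrevin) fell by 1.17 ± 0.22. Dicer iKO had 0 of 11 linkers higher and 2 lower. The shares of all genes called are those given above for the other filament genes, and the linkers were not tested as a set either.

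**Figure D5:**
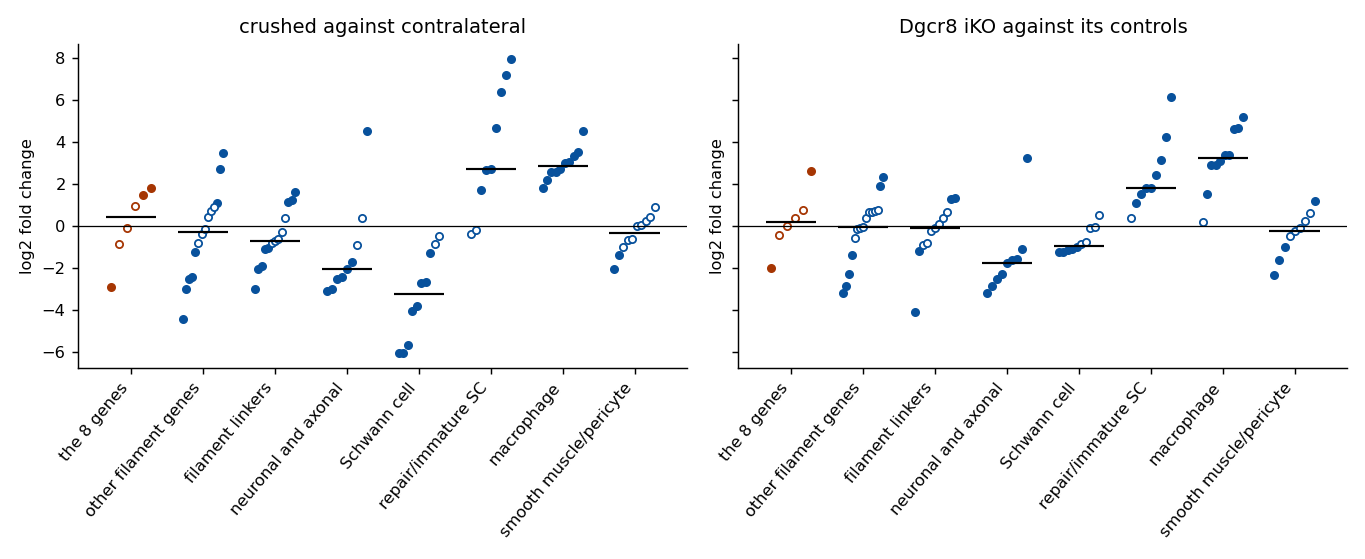
Log2 fold change (y axis) of each tested gene of 8 lists (x axis) in crushed against contralateral nerves (left) and in Dgcr8 iKO against controls (right); filled points were called, black lines are medians. The filament genes spread to both sides of 0, the macrophage and repair lists lie mostly above it, and most of the neuronal list lies below it, with Tubb3 far above.

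Across the 23 libraries, after the mean of each experiment was removed from log2(CPM + 1), the 3 genes most like each filament gene among 12852 genes were looked up, of which 1 is left out here. This is a description over libraries that share groups, so high values follow wherever a gene differs between groups. For Gfap these were Kcnj10 (Pearson r = 0.951), Slc4a8 (0.928) and Ppic (0.928), and for Vim they included Acap2 (0.983) and Ywhag (0.98). For Nes they were Tex2 (0.953), Anp32a (0.94) and Nsun2 (0.938), and for Prph Kif21a (0.967), Cntln (0.966) and Nek4 (0.962). Synm was most like Mobp (0.887), Fmo1 (0.88) and Vldlr (0.876), and Des had the weakest likeness, with Scarb1 (0.833), Adamts7 (0.79) and Tbx2 (0.782). Krt8 and Krt18 were too low to be included.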

How the data were processed

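RNA of 23 sciatic nerves (11 of the crush and 12 of the mutant experiment) had been sequenced after ribosomal RNA removal. Per the labels a Clontech pico input kit was used for the crush libraries and an Illumina TruSeq stranded kit for the mutants, while the study's methods name the latter for all. After trimming (Trimmomatic) and alignment to GRCm38 (STAR), the authors used RSEM to estimate transcript abundance and deposited expected counts, FPKM and TPM per transcript. The Ensembl release and the strand setting are not given in the sources used here, and TPM was not used. The 8 genes and all gene lists were chosen with earlier results of these data known.

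Expected counts as deposited were summed per gene and rounded, and FPKM as deposited was summed per gene. Symbols were matched for 42451 of 43068 and 22647 of 22880 gene identifiers (GENCODE M21). Genes were filtered with filterByExpr (10 counts) and tested with edgeR's quasi-likelihood test (edgeR 4.0.16, limma 3.58.1, R 4.3.3, TMM), with a limit of 2-fold and a Benjamini-Hochberg adjusted p of 0.05; differences between effects were called on the adjusted p alone. DESeq2 1.42.0, RLE factors, edgeR's exact test, other filters, the replicate number as a block, all groups in 1 fit, a stricter limit of 0.01 and each library left out were alternatives. The test was also run on counts simulated with a fixed spread, in which only genes above the lowest levels were changed. That simulation does not cover genes near the floor or the differences between effects, and its outcome is not given here. Total counts were between 5594859 and 12806066, and 3 counts, the limit that a count of 0 allows, cover counting error only. All 8 genes were named in each comparison. Of each list the counts called, the median and up to 2 called genes in each direction were given, and for each of the 8 genes the 3 genes with the highest Pearson r of log2(CPM + 1). Genes that share reads with near-identical copies may be split by RSEM. One gene of the likeness ranking and some sequences are not reported here.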

Additional observations from a re-analysis of the deposited data

Results flagged for a closer look

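In 1 of the 16 sets of 4 libraries examined (8 genes in contralateral and in crushed nerves), 1 library stood apart from the other 3 by Dixon's 95% limit, of which chance marks about 1 in 20. Nes in contralateral replicate 2 was at 1613.2 CPM, and the other contralateral nerves were at 1395.5, 1414 and 1418 CPM. Without it, the Nes log2 fold change of crushed against contralateral nerves was 1.05 in place of 0.97.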

How the results depend on the processing

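In crushed and in mutant nerves against their controls, Vim, Gfap, Nes and Prph kept their direction under every alternative that gave a value. With no filter on low counts 1 gene (Prph) was called lower in crushed against uncrushed nerves, since Synm, at -0.84, no longer passed the 2-fold limit, and all log2 values moved by 0.227 at the median; Gfap was then 1.06 there, and Nes 1.13 against contralateral nerves. With at least 10 counts in every library Prph was not tested, which left 1 gene lower against uncrushed and 0 against contralateral nerves. At an adjusted p of 0.01, 0 genes were lower in Dicer iKO, and with 1 library left out 0 to 1. Genes higher in Dicer iKO than after crush numbered 0 to 3 with 1 library left out, and Synm (0.57) passed there under RLE and DESeq2. Over all genes, 1747 in place of 2673 were higher in crushed against uncrushed nerves with at least 10 counts in every library, and DESeq2 called 170 genes higher and 65 lower in the difference between the mutants, where the quasi-likelihood test called 1 and 1. At an adjusted p of 0.01, 522 in place of 961 genes were higher and 58 in place of 214 lower in Dicer iKO. With no filter, 13 genes were higher and 128 lower in contralateral against uncrushed nerves. DESeq2 gave no adjusted p for Gfap in contralateral against uncrushed nerves.

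Values near 0 changed sign, and the cause was not tested. With at least 10 counts in every library, Des was -0.044 in crushed against uncrushed nerves, Vim -0.019 and Prph -0.008 in contralateral against uncrushed nerves, and Synm 0.017 in Dgcr8 iKO. Des was -0.028 with all groups in 1 fit, and 0.052 against contralateral nerves with no filter. With 1 library left out, Des ranged from -0.017 to 0.282 (crushed against uncrushed), Vim from -0.038 to 0.049 and Prph from -0.174 to 0.251 (contralateral against uncrushed), Synm from -0.187 to 0.09 (Dgcr8 iKO) and Gfap from -0.591 to 0.302 (Dgcr8 against Dicer effect).

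With the replicate number as a block, Prph was -0.098 in contralateral against uncrushed nerves and Synm 0.021 in Dgcr8 iKO, and none of the counts of these 8 genes called moved, while 548 genes were higher and 92 lower in Dicer iKO over all genes. Correlations of same-numbered libraries lay between -0.174 and 0.177 over all comparisons. Of these, only crushed and contralateral nerves could come from the same mice, as the study's methods say that both sides were harvested. For them the 4 same-numbered pairs lay between -0.094 and 0.177, with a mean of 0.053 against -0.018 for the other pairs. So few pairs cannot decide whether the numbers pair the libraries. Whether crushed and contralateral nerves of 1 number came from 1 mouse is not stated in the labels.

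At 5 to 17 counts of Prph in crushed nerves and at most 11 counts of Krt8 and 10 of Krt18 in any library, depth limits these genes.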
